A study of Mus musculus with 20 samples.

Results

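When both fragments of the transcription factor p65 were expressed in the same cells, 4424 of 18852 genes departed from what the 2 fragments did alone, that is from the sum of their log2 changes. Among them 1005 genes moved the same way with each fragment and with both, but by less than the sum, and 152 turned round, so that both fragments together moved the gene against the fragment or fragments that changed it alone. A further 260 were called with both fragments and with neither alone, 46 were pulled in opposite directions by the fragments, and 1978 responded to a fragment but were not called with both. The comparison uses 14 of the 20 arrays of the series: 5 arrays of cells given residues 1 to 361 together with residues 362 to 549 (N+C), 3 given residues 1 to 361 (N-fragment), 3 given residues 362 to 549 (C-fragment) and 3 given the void plasmid. The quantity tested is the interaction: the N+C mean with both fragment means taken off and the void mean added back, on log2 intensities scaled to the 75th percentile of each array. An interaction of 0 means that the log2 changes add, in other words that the folds multiply.

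All groups are a murine B16 line carrying Bcr-Abl, a constitutively active tyrosine kinase, transfected with a plasmid and compared on 1-colour whole-genome arrays of total RNA. The label for strain reads mouse C3H eOuJ, and the void arrays are those titled "Blanck". Full-length wild-type p65 (WT) and the D361E mutant, with 3 arrays each, enter the fit and are given beside the fragments where they help. The labels give no plasmid amounts and no protein levels, so the amount of each fragment made in N+C and alone is not known here. They also do not say whether replicates were separate cultures, so p-values measure the spread between these samples, which may be technical. In bulk RNA, fewer cells of a type and less RNA per cell cannot be told apart.

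p65, the product of Rela, is an NF-kB subunit: its N-terminal Rel homology domain binds DNA, dimerizes and is held by the inhibitor IkB-alpha, and its C-terminal part carries the transactivation domains. Cutting between them separates DNA binding from activation. Many NF-kB targets encode the pathway's own inhibitors, such as Nfkbia (IkB-alpha) and Tnfaip3 (A20), and the motif bound by the family is the kB site.

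Promoters of genes that the results turn on are printed here from RefSeq (GRCm38.p6), from 250 bases before the start site to 50 after it, 5′ to 3′ on the strand of the gene. The first 2 are inhibitor genes that responded to the N-fragment and not in the same way to both fragments. Capitals mark matches to the kB consensus on either strand, in Nfkbia (chr12:55492598-55492897, minus strand, 1 match) and in Tnfaip3 (chr10:19015361-19015660, minus strand, 3 matches, of which 2 are the same bases read on either strand).
Nfkbia: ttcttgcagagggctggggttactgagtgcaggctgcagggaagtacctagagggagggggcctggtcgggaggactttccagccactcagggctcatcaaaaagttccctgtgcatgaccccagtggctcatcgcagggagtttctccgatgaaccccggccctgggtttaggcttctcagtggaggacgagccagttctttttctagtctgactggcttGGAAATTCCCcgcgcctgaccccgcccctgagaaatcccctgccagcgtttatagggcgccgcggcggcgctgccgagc
Tnfaip3: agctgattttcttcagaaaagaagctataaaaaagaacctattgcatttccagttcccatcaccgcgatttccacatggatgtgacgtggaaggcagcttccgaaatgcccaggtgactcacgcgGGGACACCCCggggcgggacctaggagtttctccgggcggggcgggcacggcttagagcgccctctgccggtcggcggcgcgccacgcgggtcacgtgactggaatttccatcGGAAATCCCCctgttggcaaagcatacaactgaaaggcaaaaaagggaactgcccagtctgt
The kB consensus was found in 10.2% of the 14076 windows of genes tested. In the NF-kB family and NF-kB inflammatory target lists it was in 44.19% of the 43 windows of members measured. Of the windows of members called in the interaction 7 of 13 held it, in 5 of the 8 genes that had a window. The other 2 are antioxidant genes that rose with each fragment and with both, and capitals mark a match to TGACNNNGC, the core of the antioxidant response element, on either strand. They are Gclm (chr3:122245307-122245606, plus strand) and Srxn1 (chr2:152105274-152105573, plus strand).
Gclm: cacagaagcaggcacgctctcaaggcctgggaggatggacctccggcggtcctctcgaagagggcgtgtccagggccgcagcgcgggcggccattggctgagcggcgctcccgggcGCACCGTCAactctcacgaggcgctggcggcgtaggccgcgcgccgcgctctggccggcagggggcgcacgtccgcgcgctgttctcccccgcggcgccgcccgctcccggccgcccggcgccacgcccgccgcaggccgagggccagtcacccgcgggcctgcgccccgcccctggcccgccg
Srxn1: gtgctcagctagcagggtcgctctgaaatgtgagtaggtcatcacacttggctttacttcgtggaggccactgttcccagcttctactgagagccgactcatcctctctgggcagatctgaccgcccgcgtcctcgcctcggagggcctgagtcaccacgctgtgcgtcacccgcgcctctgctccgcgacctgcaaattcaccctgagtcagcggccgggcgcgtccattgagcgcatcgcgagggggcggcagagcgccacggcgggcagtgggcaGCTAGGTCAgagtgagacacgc
This core was found in 13.87% of the windows of genes tested and in 31.82% of the 22 windows of NRF2 targets measured. Of the windows of NRF2 targets called in the interaction 5 of 12 held it, in 5 of the 8 genes. A match describes letters only, and no binding was measured.

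Between 51.1 and 57.87% of spots were well above background on each array, no spot was saturated, and the 75th percentiles of the arrays differed up to 1.44-fold. Of 17 melanocyte markers 16 were detected on each of the 20 arrays. Markers of other lineages were partly detected: 8 of 20 haematopoietic and B-lymphoid, 5 of 10 macrophage, 6 of 10 fibroblast and 5 of 10 epithelial genes passed the filter. The interaction was called for 7 of them, against 23.5% of all genes. The defining genes Ptprc, Adgre1 and Epcam did not pass, while Csf1r, Pdgfra and Cdh1 did. With 1 as the 75th percentile of an array, the summed intensity of the haematopoietic genes was 2.65 to 3.78 in N+C, 2.68 to 3.05 with the N-fragment, 3.32 to 3.86 with the C-fragment and 3.19 to 5.47 with void. That of the fibroblast genes was 4.78 to 6.93 in N+C, 3.26 to 5.14 with the N-fragment, 5.57 to 5.94 with the C-fragment and 5.84 to 8.16 with void. Macrophage genes summed to 0.75 to 1.12 and epithelial genes to 0.081 to 0.121 over the 4 groups, and the 17 melanocyte genes to 1276 to 1600.2. The part of these markers in the results was not tested. The N+C arrays fell into 2 sets. Arrays N+C 1 to 3 correlated at 0.996 to 0.998 among themselves and N+C 4 with N+C 5 at 0.997, against 0.98 to 0.988 between the sets, over 14800 genes. Within the other groups the ranges were 0.987 to 0.996 for void, 0.989 to 0.998 for the N-fragment and 0.998 to 0.999 for the C-fragment. The void range thus reached that between the N+C sets. Between the sets 5753 genes differed by the same adjusted threshold, so counts are also given with N+C 1 to 3 only and with N+C 4 and 5 only, as are single genes that turn on the set. The 20 arrays sat on 5 slides of 4, and no slide held all 4 groups, so the interaction has no value within a slide and was refitted with slide as a block.

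**Figure D1:**
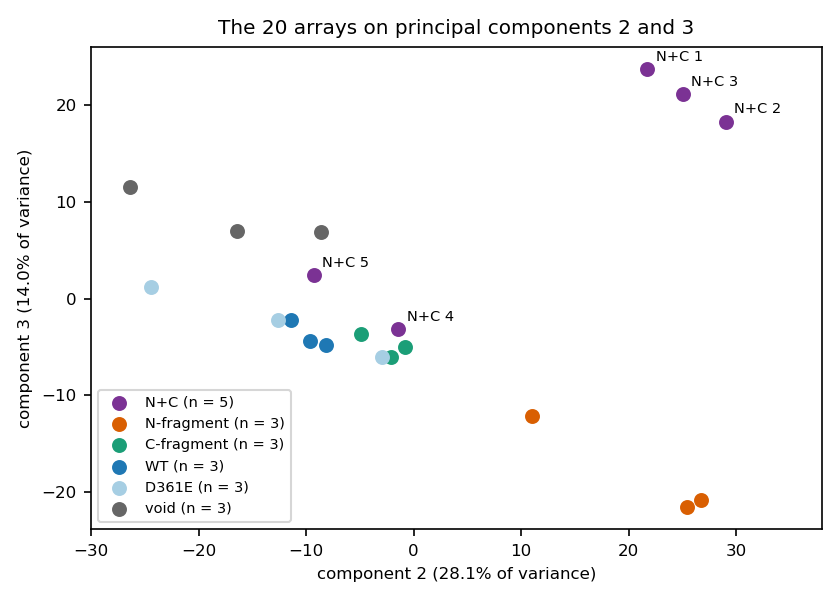
Each point is an array, placed by principal components 2 and 3 of the 2000 most variable genes (28.1 and 14% of their variance), coloured by group. Arrays N+C 1 to 3 lie at the upper right, away from N+C 4 and 5, which lie among the arrays of void, WT, D361E and the C-fragment. Component 1, the largest (33.3%), is not drawn. Its values were 19.9 to 40.19 on slide 2 and -22.05 to -10.39 on slide 3, each with arrays of several groups.

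Called here means an adjusted p under 0.05 by limma with Benjamini-Hochberg adjustment over all 18852 genes, and values after ± are standard errors of log2 differences. The interaction was called for 23.5% of genes, 2865 with a positive and 1559 with a negative value. Against void, N+C changed 4715 genes (25%), the N-fragment 5942 (31.5%) and the C-fragment 2526 (13.4%). Without void in the comparison, N+C differed from the N-fragment in 4184 genes (22.2%), from the C-fragment in 3256 (17.3%), and the N-fragment from the C-fragment in 3789 (20.1%). The void arrays enter the 3 differences with a minus sign and the interaction with a plus sign, so a void level that is off moves all of them at once. That is why N+C is also set directly against each fragment below.

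The interaction was 1 log2 unit or more in 1256 genes. Of all 4424 genes 3905 were above background on all 14 arrays, and in 310 at least 1 group had no array above background, so that its level there is only a bound. With the same sign, 4223 genes were called with N+C 1 to 3 only, 3581 with N+C 4 and 5 only, 3423 in both, and 3467 with slide as a block. The excess of positive values depends on the scaling: 64.8% of calls were positive as scaled, 54% after normexp and quantile normalization (2166 positive and 1845 negative), and 17.1% without scaling (912 and 4410), where the median interaction of all genes was -0.32 against 0.05.

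**Figure D2:**
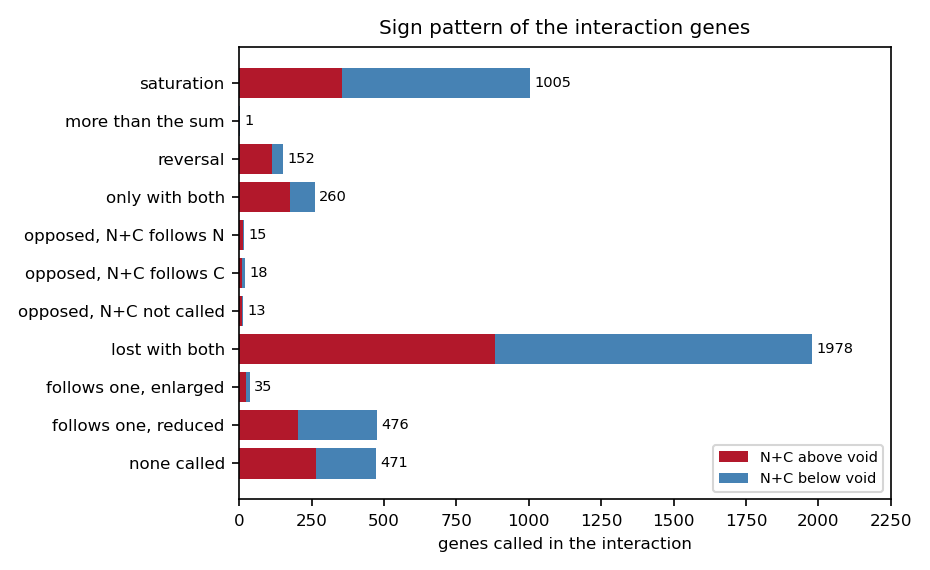
Bars give the number of genes called in the interaction in each class of response, split by whether the N+C mean lay above or below void. The largest class, with 1978 genes, is called with a fragment but not with both, followed by 1005 genes that moved the same way in all 3 groups by less than the sum.

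Among the classes in which N+C differed from void, saturation was the largest. All 3 constructs moved 1005 genes (5.33% of those tested) the same way, 355 higher and 650 lower than void, with an interaction of the opposite sign. Only 1 gene, Dnajc12, was called the same way with all 3 constructs and moved by more than the sum. Across the 1005 genes N+C reached a median 40.4% of the sum of both log2 changes (quartiles 33.9 and 49.6%) and 69.9% of the larger one. In 80 genes the N+C change was larger than both, in 407 it lay between them, and in 518 it was smaller than both. The name saturation therefore stands for the sign pattern only, not for a ceiling at the larger change. Of these genes 669 kept the class with N+C 1 to 3 only and with N+C 4 and 5 only, and 793 kept it with slide as a block. In 56 genes at least 1 group had no array above background.

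Hspb1, a small heat shock protein, rose less with both fragments together than with either. Its scaled log2 intensity was -1.13, -1.17, -1.19, -1.08 and -1.04 in N+C, 1.18, 1.21 and 1.35 with the N-fragment, -0.41, -0.30 and -0.35 with the C-fragment, and -1.61, -1.52 and -1.66 with void. No 2 of the 4 groups overlapped, and N+C lay nearest to void. Against void Hspb1 rose 1.39-fold with N+C, 7.16-fold with the N-fragment and 2.37-fold with the C-fragment, an interaction of -3.61 ± 0.08 (adjusted p = 8.28e-14). N+C was 5.15-fold below the N-fragment (log2 -2.37 ± 0.06, adjusted p = 6.44e-14) and 1.70-fold below the C-fragment (log2 -0.77 ± 0.06, adjusted p = 1.33e-07). WT and D361E rose by 1.19 and 1.51 log2 units.

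Lims2, an adaptor protein of integrin adhesions, instead lay between the fragments. It read 4.08, 3.96, 4.14, 3.22 and 3.53 in N+C, 5.14, 4.98 and 4.94 with the N-fragment, 1.34, 1.19 and 1.60 with the C-fragment, and -1.86, -1.29 and -1.52 with void. The groups did not overlap, and N+C arrays 4 and 5 were the lowest of their group. The rises of 40.5-fold with N+C, 95.3-fold with the N-fragment and 7.64-fold with the C-fragment gave an interaction of -4.17 ± 0.33 (adjusted p = 3.59e-07). D361E rose by 5.16 log2 units and WT by 0.71 (adjusted p = 0.089, not called).

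Etv4, an ETS factor whose transcription follows ERK signalling, and Tmem255a, a membrane protein, also rose in all 3 groups. Etv4 rose 7.28-fold with N+C, 11.6-fold with the N-fragment and 5.58-fold with the C-fragment (interaction -3.15 ± 0.30, adjusted p = 2.39e-06), and its N+C and C-fragment arrays overlapped. Tmem255a had log2 changes of 2.36 with N+C, 3.33 with the N-fragment and 1.80 with the C-fragment, with an interaction of -2.77 ± 0.19 (adjusted p = 7.92e-08).

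Cd82, a tetraspanin known as a suppressor of metastasis, had the largest interaction of the saturation genes that were above background on all 14 arrays, and all 3 constructs lowered it. It read 1.76, 1.76, 1.61, 1.29 and 1.27 in N+C, -0.99, -1.08 and -1.03 with the N-fragment, 0.60, 0.61 and 0.44 with the C-fragment, and 2.47, 2.48 and 2.57 with void. N+C lay between void and the C-fragment without overlap. It fell 1.96-fold with N+C, 11.6-fold with the N-fragment and 3.87-fold with the C-fragment, with an interaction of 4.52 ± 0.16 (adjusted p = 3.59e-11). N+C exceeded the N-fragment 5.93-fold and the C-fragment 1.98-fold, each called.

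Sulf2, a heparan sulfate sulfatase, shows how the N+C sets matter. Its N+C arrays read 1.97, 1.79 and 1.93 in N+C 1 to 3 and -0.04 and 0.09 in N+C 4 and 5, against -0.44 to -0.76 with the N-fragment, 0.07 to 0.24 with the C-fragment and 2.19 to 2.56 with void. The interaction was 4.04 ± 0.60 (adjusted p = 0.000159) over all 5, 4.79 with N+C 1 to 3 only and 2.91 with N+C 4 and 5 only, called in each. Azgp1, a secreted zinc-binding glycoprotein, changed class: its interaction was 3.42 ± 0.45 (adjusted p = 5.69e-05), but with N+C 4 and 5 only its N+C change was not called.

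**Figure D3:**
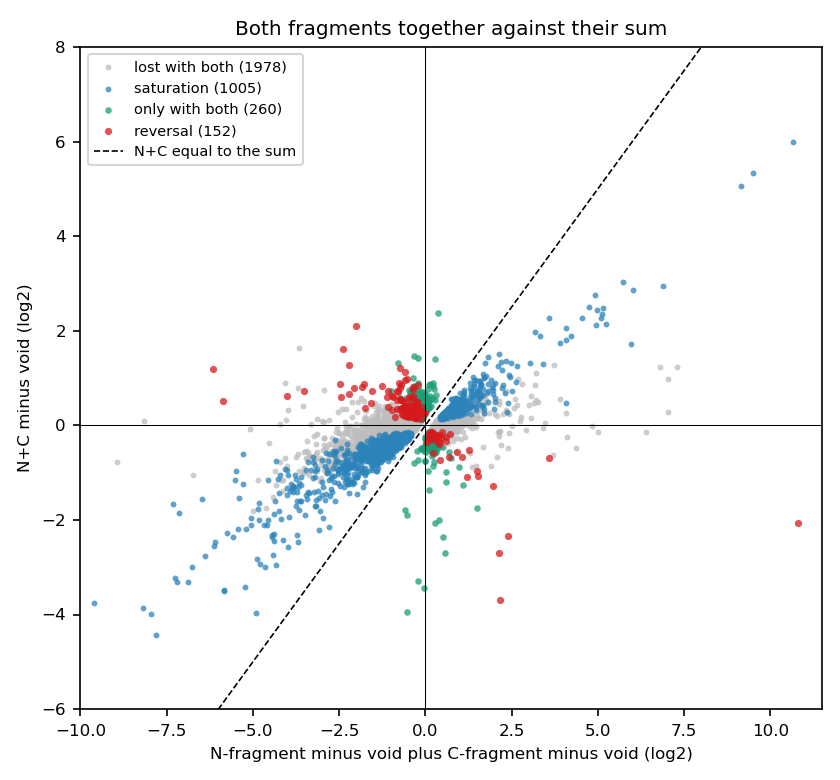
For the genes called in the interaction, the horizontal axis is the sum of the N-fragment and C-fragment log2 changes against void and the vertical axis the log2 change of N+C against void. The dashed diagonal marks addition; saturation genes lie between it and the horizontal zero line, and reversal genes mostly in the quadrants of opposite sign. The reversal gene at the far right is Tubb2b, a tubulin gene that was not above background on all 14 arrays.

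Among the gene lists, saturation was most frequent for p53 targets, genes that p53 induces on DNA damage and stress. Of 22 measured, 14 had a positive and 1 a negative called interaction, against 23.5% called among all genes. Their median was 0.62 against 0.05 over all genes. Without scaling the counts were 7 and 3, beside 912 and 4410 over all genes. Against void 18 were lower with N+C (25% of all genes were called), 16 with the N-fragment (31.5%) and 14 with the C-fragment (13.4%). The 1 member called higher was so with the N-fragment. Of the 15 called in the interaction, 13 belonged to saturation, all 13 lower in each group. They include the cell cycle inhibitor Cdkn1a, the antiproliferative gene Btg2, the stress genes Ddit4, Sesn1 and Sesn2, the pro-apoptotic genes Bbc3 and Bax, and Mdm2, which encodes the ligase that degrades p53. The fall was not particular to the fragments. In all 13 the D361E arrays lay below every void array. So did the WT arrays, except in Sesn2, where they overlapped void. The called interactions of Mdm2 (0.23) and Bax (0.32) were small and turned negative without scaling.

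Btg2 read -4.74, -4.47, -4.40, -4.60 and -4.97 in N+C, -4.35, -4.86 and -4.90 with the N-fragment, -4.37, -4.30 and -4.43 with the C-fragment, and -2.38, -2.24 and -2.32 with void. The 3 p65 groups overlapped one another and none overlapped void. Its level fell 5.01-fold with N+C, 5.24-fold with the N-fragment and 4.15-fold with the C-fragment, and the interaction was 2.12 ± 0.19 (adjusted p = 1.01e-06). N+C differed from the N-fragment by 0.07 ± 0.12 and from the C-fragment by -0.27 ± 0.12, neither called. On slides that held both, N+C minus void was -2.50, -2.10, -2.36 and -2.65. Btg2 was also below void with the full-length forms, at -4.36, -4.30 and -4.36 with WT and -5.40, -5.36 and -5.23 with D361E.

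Ddit4, an inhibitor of mTORC1, and Trp53inp1, a p53-induced stress protein, also fell in all 3 groups. Ddit4 fell 5.44-fold with N+C, 5.6-fold with the N-fragment and 3.74-fold with the C-fragment (interaction 1.94 ± 0.12, adjusted p = 2.56e-08). Trp53inp1 read -1.03, -0.96, -0.96, -1.23 and -1.27 in N+C, -1.10, -1.12 and -1.02 with the N-fragment, 0.02, -0.01 and -0.08 with the C-fragment, and 1.91, 1.80 and 1.81 with void. Its N+C arrays overlapped the N-fragment and lay below the C-fragment, with an interaction of 1.85 ± 0.11 (adjusted p = 1.25e-08). The 2 exceptions were Perp, a desmosome protein, and Ei24, an endoplasmic reticulum protein. In Perp the C-fragment change was not called and no N-fragment array was above background, so its interaction is at least 0.71. Ei24 was not called with N+C (log2 -0.03 ± 0.09) and rose by 1.18 with the N-fragment.

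Among NRF2 targets, the antioxidant and NADPH-producing genes, 5 of 19 rose in all 3 groups by less than the sum. Of the 19, 7 had a negative and 1 a positive called interaction, against 23.5% called among all genes. The median was -0.14 against 0.05 over all genes. Without scaling the counts were 11 and 1, where 4410 of the 5322 calls over all genes were negative. Against void 10 were higher with N+C (25% of all genes were called), 10 with the N-fragment (31.5%) and 10 with the C-fragment (13.4%). Lower than void were 1 with N+C and 2 with the N-fragment. The 5 in saturation were Nqo1, Gclm, Srxn1, Txnrd1 and Taldo1, and the 1 positive value was Gstm1, a glutathione transferase, which fell by 1.21 with the N-fragment and was not called with both. Srxn1, the sulfiredoxin that repairs peroxiredoxins, read 5.01, 5.00, 4.85, 5.14 and 5.23 in N+C, 5.10, 4.97 and 4.84 with the N-fragment, 4.28, 4.21 and 4.16 with the C-fragment, and 3.50, 3.58 and 3.51 with void. N+C overlapped the N-fragment and lay above the C-fragment and void. It rose 2.86-fold with N+C, 2.71-fold with the N-fragment and 1.61-fold with the C-fragment (interaction -0.61 ± 0.13, adjusted p = 0.00232).

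Nqo1, a quinone reductase, rose further, but its void level is a bound. It read -1.68, -1.73, -1.58, -2.77 and -2.70 in N+C, -2.36, -2.54 and -2.56 with the N-fragment and -2.90, -2.95 and -3.17 with the C-fragment, while no void array was well above background. Nqo1 was therefore at least 13.4-fold higher with N+C, at least 10.2-fold with the N-fragment and at least 7.12-fold with the C-fragment, and its interaction at most -2.44. Gclm, the modifier subunit of glutathione synthesis, rose 1.82-fold with N+C, 2.27-fold with the N-fragment and 1.73-fold with the C-fragment (interaction -1.11 ± 0.23, adjusted p = 0.00255), and its N+C arrays 4 and 5 were higher (-0.20 and -0.32) than N+C 1 to 3 (-0.88, -0.88 and -0.98).

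Members of 2 further lists were also in saturation, against 5.33% of all genes, and 23.5% of all genes were called in the interaction. Without scaling 912 calls over all genes were positive and 4410 negative. Of 23 glycolysis and hypoxia genes 8 had a positive and 1 a negative called interaction (4 and 4 without scaling), 5 of them in saturation, among them Bnip3, a mitophagy receptor, which fell 5.34-fold with N+C, 3.62-fold with the N-fragment and 4.78-fold with the C-fragment. Of 21 immediate early and ERK output genes 4 were positive and 5 negative (4 and 7 without scaling), with 7 in saturation. Those that rose were the feedback genes Spry2, Dusp4 and Dusp6 and the factors Etv4 and Etv5, while Jund and Phlda1 fell.

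Reversal, in which N+C was called opposite in sign to every called fragment, held 152 genes (0.806% of those tested), 112 higher and 40 lower than void with N+C. In 20 both fragments were called, in 91 only the N-fragment and in 41 only the C-fragment. The class held for 78 genes with each N+C set alone and for 121 with slide as a block. Of the 6 genes described next, 5 were lowered by each fragment and raised by both.

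Cbr3, a carbonyl reductase, had the largest interaction among the reversal genes above background on all 14 arrays. It read 3.23, 3.20, 3.16, 2.94 and 3.04 in N+C, -0.43, -0.72 and -0.88 with the N-fragment, 1.81, 1.69 and 1.50 with the C-fragment, and 2.39, 2.51 and 2.58 with void. All 5 N+C arrays lay above every void array, and all fragment arrays below. It rose 1.54-fold with N+C (log2 0.62 ± 0.11, adjusted p = 0.000482), and fell 9.02-fold with the N-fragment and 1.78-fold with the C-fragment, with an interaction of 4.62 ± 0.16 (adjusted p = 1.84e-11). On shared slides N+C exceeded void by 0.72, 0.81, 0.43 and 0.46. WT and D361E changed it by -1.25 and -0.78, called in both.

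Hsd11b1, which regenerates active glucocorticoid, had the largest N+C rise of the 6. Its levels were -0.55, -0.67, -0.58, -1.40 and -1.48 in N+C, -4.21, -4.36 and -4.19 with the N-fragment, -3.75, -3.70 and -3.98 with the C-fragment, and -3.15, -3.02 and -2.93 with void. The groups did not overlap, and N+C 4 and 5 were the lowest of the N+C arrays. It rose 4.27-fold with N+C (log2 2.09 ± 0.18, adjusted p = 7.9e-07), and fell 2.33-fold with the N-fragment and 1.72-fold with the C-fragment (interaction 4.10 ± 0.28, adjusted p = 5.42e-08). Both full-length forms were lower than void, by -0.91 with WT and -1.22 with D361E on the log2 scale.

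Col4a1, a chain of basement membrane collagen IV, read -1.78, -1.88, -1.75, -2.06 and -2.17 in N+C, -3.57, -3.90 and -3.78 with the N-fragment, -4.38, -4.16 and -4.44 with the C-fragment, and -2.96, -2.73 and -2.70 with void. Again N+C was above void and both fragments below, without overlap. The rise with N+C was 1.83-fold and the falls 1.94-fold and 2.9-fold with the N-fragment and the C-fragment (interaction 3.36 ± 0.17, adjusted p = 2.23e-09). WT changed Col4a1 by -0.37 (not called). Its partner chain Col4a2 had an interaction of 2.28 ± 0.36 (adjusted p = 0.000274), but its N+C change of 0.51 ± 0.24 was not called.

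The other 3 also rose with N+C and fell with the N-fragment. Hsd17b14, a steroid dehydrogenase, rose 1.53-fold with N+C and fell 3.13-fold with the N-fragment and 1.75-fold with the C-fragment (interaction 3.06 ± 0.24, adjusted p = 2.22e-07). Filip1l, a filamin-binding protein, rose 1.74-fold with N+C and fell 2-fold with the N-fragment and 2.08-fold with the C-fragment (interaction 2.86 ± 0.19, adjusted p = 5.11e-08). Lcp1, an actin bundler of leukocytes, rose 2.41-fold with N+C and fell 3.84-fold with the N-fragment, while its C-fragment change of -0.26 ± 0.12 was not called (interaction 3.47 ± 0.16, adjusted p = 5.98e-10). All 6 stayed in the class with N+C 1 to 3 only, with N+C 4 and 5 only and with slide as a block.

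Kit, the receptor tyrosine kinase of melanocytes, went the other way and rested on 1 set. It read -2.26, -2.47 and -2.27 in N+C 1 to 3 and -0.98 and -0.92 in N+C 4 and 5, against 0.88 to 1.10 with the N-fragment, -1.22 to -0.91 with the C-fragment and -0.94 to -0.73 with void. The interaction, -2.46 ± 0.44 over all arrays (adjusted p = 0.000816), was called with each set. N+C was called below void over all 5 arrays (log2 -0.97 ± 0.29) and with N+C 1 to 3 only, but not with N+C 4 and 5 only.

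**Figure D4:**
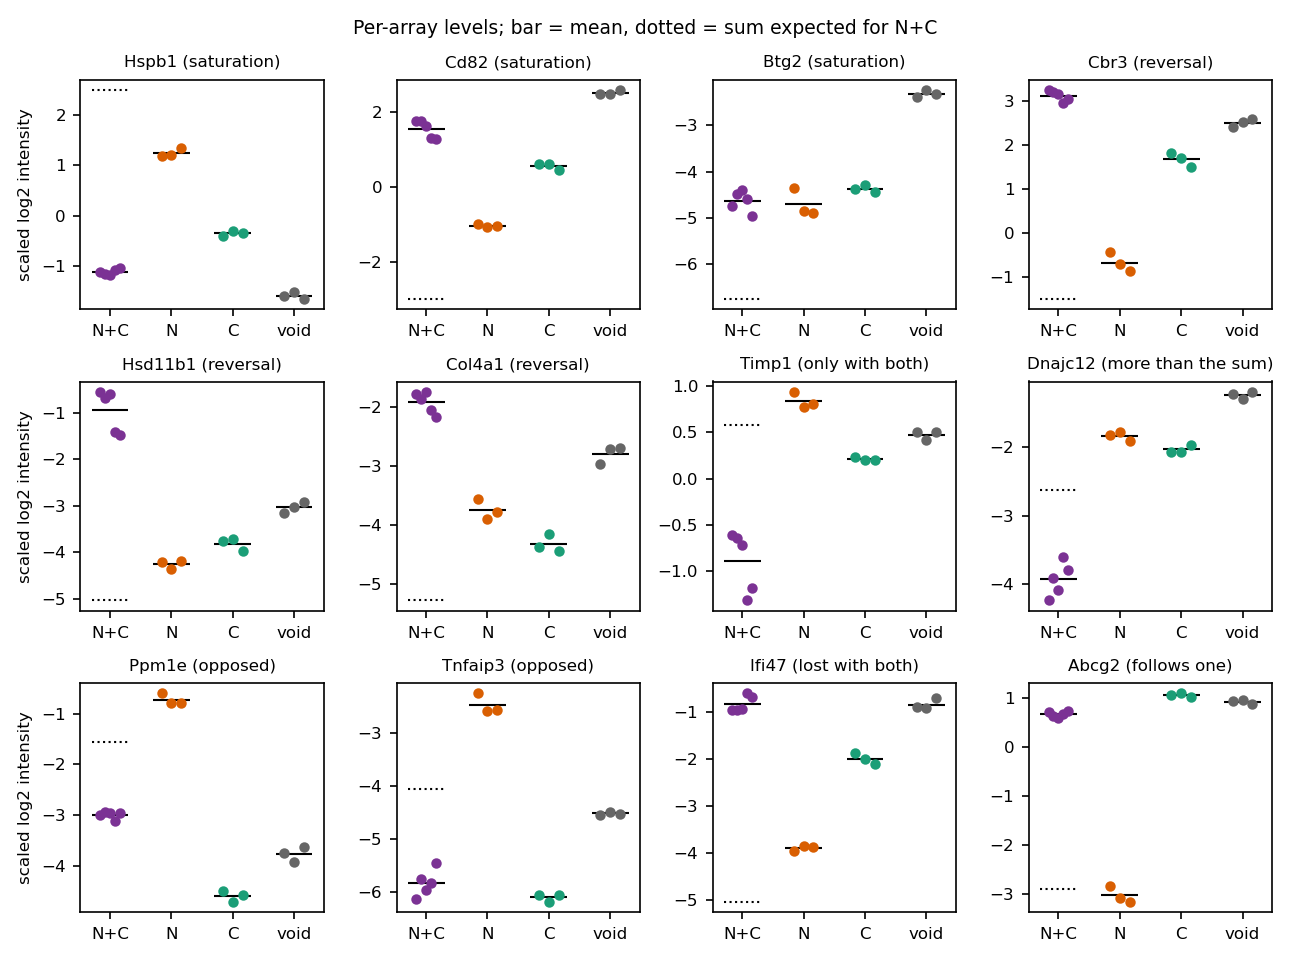
Points are arrays and bars group means of scaled log2 intensity, for genes of each class, with N+C left, then the N-fragment (N), the C-fragment (C) and void, and a dotted line where N+C would lie if the changes added. In Hspb1 the N+C arrays sit below both fragments and above void, in Cbr3, Hsd11b1 and Col4a1 above void with both fragments below it.

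Genes called only with both fragments numbered 260 (1.38% of those tested), 176 higher and 84 lower than void with N+C. In 38 of them the interaction reached 1 log2 unit, and the class is set by fragment changes that missed the threshold: only 96 kept it with each N+C set alone and 164 with slide as a block. C1qtnf12, a secreted adipokine also called adipolin, had the largest interaction among those above background on all 14 arrays (-3.26 ± 0.56, adjusted p = 0.000574). Its levels were -1.44, -1.54, -1.76, 0.17 and 0.28 in N+C, 1.68, 1.49 and 1.46 with the N-fragment, 1.82, 1.70 and 1.77 with the C-fragment, and 0.84, 0.88 and 0.97 with void. Every fragment array lay above void and every N+C array below it. With either N+C set alone, both fragments were called higher and the gene was in reversal.

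Timp1, a secreted inhibitor of matrix metalloproteinases, read -0.61, -0.65, -0.72, -1.32 and -1.18 in N+C, 0.94, 0.78 and 0.81 with the N-fragment, 0.23, 0.20 and 0.20 with the C-fragment, and 0.50, 0.42 and 0.50 with void. It fell 2.58-fold with N+C (log2 -1.37 ± 0.14, adjusted p = 2.76e-06), with changes of 0.37 ± 0.15 with the N-fragment and -0.26 ± 0.15 with the C-fragment that were not called. With either N+C set alone the fragments were called in opposite directions, with N+C on the side of the C-fragment. D361E also changed it, by -1.78, and WT differed by -0.17 (not called).

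Jam2, an endothelial junction molecule, and Aox1, an aldehyde oxidase, rose with both. Jam2 rose 2.76-fold with N+C (interaction 1.78 ± 0.48, adjusted p = 0.0132), mainly through N+C 1 to 3 (-1.31, -1.63 and -1.48), since N+C 4 and 5 (-3.07 and -2.77) lay near the N-fragment arrays (-2.95, -3.05 and -3.29). Aox1 rose 1.49-fold with N+C (interaction 1.32 ± 0.20, adjusted p = 0.000203), and with N+C 4 and 5 only the N+C change was not called. Nt5dc2, a member of the nucleotidase family, likewise left the class with each set and with slide as a block. Of the 6 genes named, Tas2r113, a bitter taste receptor, stayed in the class with each N+C set and with the block: it fell 4.01-fold with N+C (log2 -2.00 ± 0.37, adjusted p = 0.000868).

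Dnajc12, a co-chaperone of aromatic amino acid hydroxylases, was the only gene called the same way with each fragment and with both, beyond the sum. It read -4.23, -3.91, -4.08, -3.61 and -3.79 in N+C, -1.82, -1.79 and -1.91 with the N-fragment, -2.07, -2.07 and -1.97 with the C-fragment, and -1.23, -1.30 and -1.20 with void. All 5 N+C arrays were below every other array of the 4 groups. It fell 6.42-fold with N+C against 1.51-fold with the N-fragment and 1.73-fold with the C-fragment, an interaction of -1.29 ± 0.15 (adjusted p = 1.88e-05). It stayed beyond the sum with each N+C set and with slide as a block, and WT and D361E changed it by -0.94 and -1.78.

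In 46 genes the fragments pulled in opposite directions, so that N+C could follow one of them. It followed the N-fragment in 15, the C-fragment in 18, and was not called in 13. Ppm1e, a protein phosphatase, rose 1.71-fold with N+C and 8.21-fold with the N-fragment, and fell 1.77-fold with the C-fragment. Its levels were -3.00, -2.93, -2.95, -3.11 and -2.96 in N+C, -0.60, -0.79 and -0.80 with the N-fragment, -4.49, -4.71 and -4.57 with the C-fragment, and -3.74, -3.92 and -3.64 with void. N+C followed the N-fragment in sign but lay nearer to void than to it. Eml1, a microtubule-binding protein, lay level with the N-fragment: N+C minus N-fragment was 0.01 ± 0.09, while N+C minus C-fragment was 1.41 ± 0.09 (adjusted p = 7.58e-08). Zfp26, a zinc finger protein, rose 1.12-fold with N+C and 3.1-fold with the N-fragment. The N+C change was not called with N+C 1 to 3 only in Eml1, nor with N+C 4 and 5 only in Zfp26.

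Timp3, another metalloproteinase inhibitor, lay on the side of the C-fragment. It read -4.32, -4.32, -4.20, -3.08 and -2.92 in N+C, -0.48, -0.59 and -0.42 with the N-fragment, -3.98, -3.86 and -4.04 with the C-fragment, and -2.61, -2.51 and -2.67 with void. All N+C arrays lay below void, and N+C overlapped the C-fragment only. It fell 2.25-fold with N+C and 2.57-fold with the C-fragment, and rose 4.28-fold with the N-fragment (interaction -1.91 ± 0.40, adjusted p = 0.00278). Fam241b, a membrane protein, rose 2.82-fold with N+C and 1.88-fold with the C-fragment and fell 2.19-fold with the N-fragment. Serinc5, a membrane protein that restricts retroviruses, fell 1.86-fold with N+C and 1.26-fold with the C-fragment and rose 1.66-fold with the N-fragment. In both, N+C went past the C-fragment, by 0.58 ± 0.12 (adjusted p = 0.0027) in Fam241b and -0.56 ± 0.06 (adjusted p = 1.74e-05) in Serinc5.

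How near N+C lay to each fragment can be read without void. For the 507 genes that differed at least 2-fold between the N-fragment and the C-fragment, with that difference called, and were above background on all 14 arrays, N+C was placed on a scale from 0 at the C-fragment to 1 at the N-fragment. The median position was 0.41 (quartiles 0.18 and 0.66). Between the fragments lay 234 genes, 149 within 0.25 of the C-fragment and 77 within 0.25 of the N-fragment, with 26 beyond the N-fragment and 21 beyond the C-fragment. The median was 0.49 with N+C 1 to 3 and 0.32 with N+C 4 and 5, and per array it ran from 0.3 in N+C 4 to 0.51 in N+C 1.

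Of 24 NF-kB family and feedback genes measured, 1 was higher and 8 lower than void with N+C. With the N-fragment 9 were higher and 1 lower, and with the C-fragment 3 were lower. Over all genes 25% were called against void with N+C, 31.5% with the N-fragment and 13.4% with the C-fragment. The interaction of these 24 was called negative in 8 and positive in 1, against 23.5% called among all genes. Among the 8 are Tnfaip3 and Birc3, whose interactions rest on groups at background. The median over the 24 was -0.26 against 0.05 over all genes. Without scaling all 10 called values were negative, but so were 4410 of the 5322 called over all genes. None was in saturation. These members were chosen with earlier results of the same arrays known. The separate list of NF-kB inflammatory targets did not show this count. Of its 16 members measured, 1 was called positive and 0 negative, against 23.5% of all genes. The median of that list was -0.29, and its 1 called member was in saturation.

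Nfkbia, whose promoter is printed above, read 1.74, 1.58, 1.68, 1.28 and 1.42 in N+C, 2.73, 2.55 and 2.59 with the N-fragment, 1.24, 1.17 and 1.09 with the C-fragment, and 1.41, 1.52 and 1.57 with void. N+C overlapped void, the N-fragment lay above both and the C-fragment below both. N+C differed from void by 0.04 ± 0.10 (not called) and from the N-fragment by -1.09 ± 0.10 (adjusted p = 8.81e-07), while the N-fragment raised it 2.18-fold over void (log2 1.12 ± 0.11, adjusted p = 1.17e-06). The interaction was -0.75 ± 0.15 (adjusted p = 0.00168). Both full-length forms raised it, WT by 0.79 and D361E by 1.53.

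Tnfaip3, the ubiquitin-editing inhibitor A20, read -6.12, -5.76, -5.95, -5.83 and -5.45 in N+C, -2.26, -2.60 and -2.56 with the N-fragment, -6.06, -6.18 and -6.05 with the C-fragment, and -4.55, -4.48 and -4.52 with void. N+C and the C-fragment overlapped, below void, and the N-fragment lay above it. Only 1 of 5 N+C arrays and no C-fragment array was above background. Tnfaip3 was lower with N+C than with the N-fragment, by a measured log2 difference of -3.35 ± 0.13 (adjusted p = 4.99e-11) whose size is limited by background. Against void it rose 4.12-fold with the N-fragment (log2 2.04 ± 0.14, adjusted p = 2.93e-08) and was at least 2.25-fold lower with the C-fragment. Its measured interaction was -1.77 ± 0.19 (adjusted p = 9.57e-06). With the C-fragment at its background floor the interaction comes to -2.18. A C-fragment level below that floor would make it less negative. Since only 1 of 5 N+C arrays was above background, an N+C level below its reading would make it more negative. The interaction is therefore not bounded on either side. N+C changed it by -1.31, whereas WT and D361E raised it by 2.60 and 3.38.

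Relb and Nfkb2, which form the dimer of the alternative NF-kB pathway, differed from each other. Relb read -1.15, -1.04, -0.89, -0.82 and -0.87 in N+C, 0.31, 0.24 and 0.07 with the N-fragment, -0.76, -0.69 and -0.60 with the C-fragment, and -0.07, -0.21 and -0.13 with void, with no overlap between the groups. It fell 1.76-fold with N+C and 1.46-fold with the C-fragment and rose 1.27-fold with the N-fragment (interaction -0.62 ± 0.15, adjusted p = 0.00651), while WT raised it by 1.11 and D361E by 1.16. Nfkb2 differed from void by -0.18 ± 0.17 with N+C, not called, and rose 1.85-fold with the N-fragment (interaction -0.91 ± 0.25, adjusted p = 0.0153). With N+C 4 and 5 only, the interaction of Nfkb2 was not called (adjusted p = 0.078).

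The inhibitors of apoptosis Birc2 and Birc3 also answered to the N-fragment. Birc2 read -1.93, -1.96, -1.86, -2.28 and -2.39 in N+C, -0.59, -0.71 and -0.63 with the N-fragment, -2.65, -2.67 and -2.62 with the C-fragment, and -2.70, -2.45 and -2.38 with void. It rose 1.35-fold with N+C, where arrays N+C 4 and 5 lay level with void, and 3.66-fold with the N-fragment (interaction -1.31 ± 0.16, adjusted p = 2.42e-05). Birc3 was above background only with the N-fragment, on 3 of 3 arrays, at least 2.86-fold over void, and N+C was at least 3.14-fold below the N-fragment (adjusted p = 1.04e-05). Its interaction has no bound, since 3 groups were dim. The kinase genes Chuk and Ikbkb had small interactions of -0.27 and -0.28, that of Ikbkb not called with N+C 4 and 5 only (adjusted p = 0.0552), and Bcl3, a nuclear IkB protein, the 1 positive value (0.83 ± 0.22, adjusted p = 0.0107), which was not called with slide as a block (adjusted p = 0.074). Rela itself was not called (interaction -0.25 ± 0.09, adjusted p = 0.0531), at 4.19 to 4.31 in N+C, 4.29 to 4.57 with the N-fragment, 4.12 to 4.20 with the C-fragment and 4.05 to 4.10 with void. It was called with slide as a block (-0.29, adjusted p = 0.0404) and with N+C 1 to 3 only (adjusted p = 0.0372). The position of its probe in the transcript was not used here, so the value does not tell how much of either fragment was made.

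**Figure D5:**
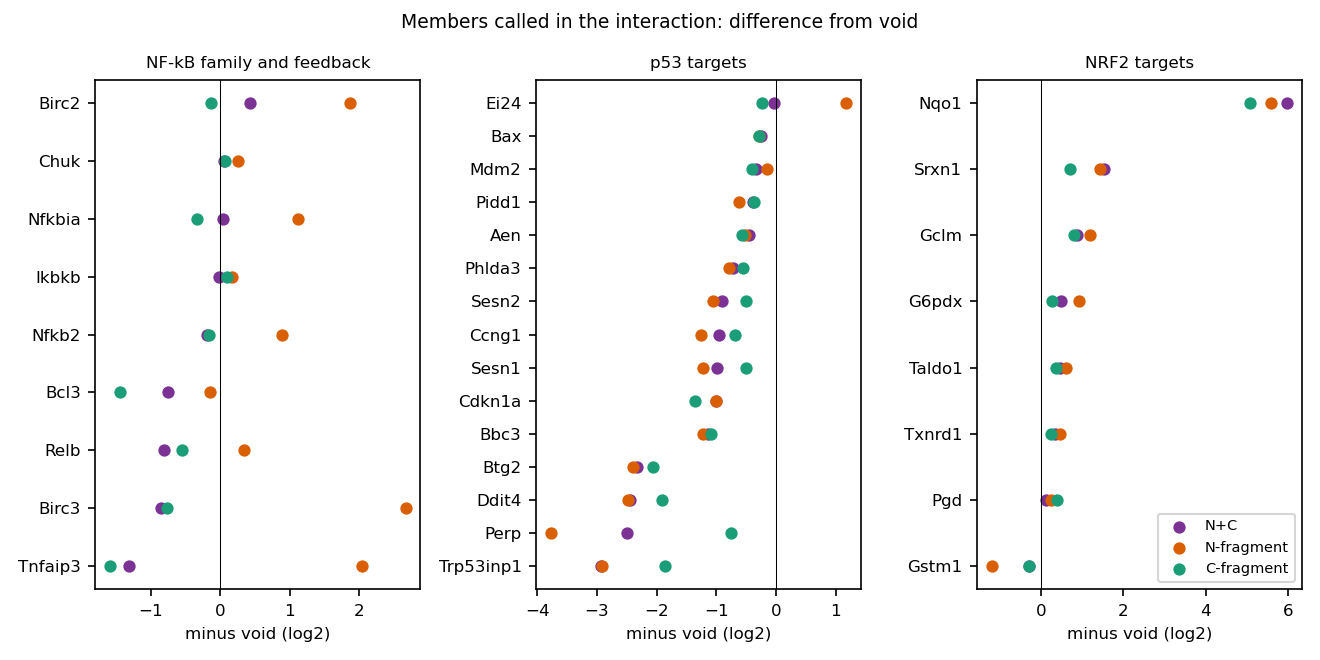
Log2 changes against void of the members of 3 gene lists called in the interaction, with a symbol for N+C, the N-fragment and the C-fragment. For the p53 targets in saturation all 3 symbols lie below 0, whereas among NF-kB family genes the N-fragment symbols of Tnfaip3, Birc2 and Nfkbia lie above those of N+C.

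The class of genes called with a fragment and not with both was the largest, 1978 genes (10.5% of those tested). In 1295 only the N-fragment had been called, in 235 only the C-fragment and in 448 both, and 960 stayed in the class with each N+C set and 1295 with slide as a block. A missing call does not show a level equal to void, but in single genes the return was close. Ifi47, an interferon-induced GTPase, read -0.94, -0.94, -0.92, -0.59 and -0.66 in N+C, -3.95, -3.86 and -3.87 with the N-fragment, -1.87, -1.99 and -2.11 with the C-fragment, and -0.89, -0.91 and -0.69 with void. N+C overlapped void and differed from it by 0.02 ± 0.10, while the N-fragment lowered the gene 8.36-fold and the C-fragment 2.23-fold (interaction 4.24 ± 0.14, adjusted p = 1.84e-11). Zfp467, a zinc finger protein, likewise differed from void by 0.03 ± 0.10 with N+C after falls of 6.33-fold and 1.58-fold with the N-fragment and the C-fragment. The AP-1 gene Atf3 differed from void by 0.07 with N+C, not called, and was lowered by the C-fragment (-1.44).

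Lamb1, a laminin chain, had the largest interaction of the class among genes above background on all 14 arrays, and differed between the N+C sets. It read -3.05, -3.45, -3.59, -1.27 and -1.28 in N+C, 2.35, 2.07 and 2.06 with the N-fragment, -1.98, -2.21 and -2.28 with the C-fragment, and -3.46, -3.41 and -3.67 with void. N+C 1 to 3 overlapped void, whereas N+C 4 and 5 lay above it and above the C-fragment. Lamb1 rose 51.2-fold with the N-fragment, and the interaction was -6.05 ± 0.66 (adjusted p = 8.65e-06), -6.89 with N+C 1 to 3 only and -4.80 with N+C 4 and 5 only. With N+C 4 and 5 only the gene was in saturation. Lmo1, a LIM-only transcription cofactor, fell with the N-fragment (log2 -2.81) and was in reversal with N+C 1 to 3 only.

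In the remaining classes N+C kept the sign of 1 fragment while the other was not called, reduced in 476 genes, of which 459 followed the N-fragment, and enlarged in 35. Abcg2, a drug efflux transporter, read 0.72, 0.62, 0.59, 0.68 and 0.73 in N+C, -2.83, -3.08 and -3.16 with the N-fragment, 1.06, 1.09 and 1.01 with the C-fragment, and 0.94, 0.96 and 0.88 with void. It fell 1.19-fold with N+C and 15.4-fold with the N-fragment (interaction 3.56 ± 0.10, adjusted p = 6.32e-13), and with N+C 4 and 5 only its N+C change was not called. Foxr2, a forkhead factor, fell 4.1-fold with N+C, where N+C 1 to 3 (-1.81, -1.67 and -2.03) lay below N+C 4 and 5 (0.37 and 0.44), and 88.4-fold with the N-fragment. Adh7, an alcohol dehydrogenase that handles retinol, rose 2.15-fold with N+C and 14.8-fold with the N-fragment. Among the enlarged, Col1a2, a chain of collagen I, changed by -2.64 with N+C and -1.17 with the C-fragment, and Pmp22, a myelin protein, rose by 1.32 with N+C and 0.53 with the N-fragment. A further 471 genes were called in the interaction with no single construct called against void.

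Among mesenchymal genes the value of Tagln2 rested on the N+C sets. Tagln2, an actin-binding protein, read -1.12, -1.09 and -1.22 in N+C 1 to 3 and 3.46 and 3.28 in N+C 4 and 5, against -0.69 to -0.64 with the N-fragment, -5.16 to -4.85 with the C-fragment and -1.14 to -0.76 with void. Its interaction of 5.31 ± 1.41 (adjusted p = 0.0126) was 3.50 with N+C 1 to 3 only and 8.02 with N+C 4 and 5 only, and was not called with slide as a block (adjusted p = 0.08).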

How the data were processed

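Total RNA was hybridized by the authors to 1-colour arrays of 44397 features, scanned and read with Agilent Feature Extraction 10.7.3.1, per the submitters' processing notes. The deposited files give an intensity per spot. The deposited series table equals the background-subtracted processed signal on every array, so the deposited values hold no scaling between arrays. Whether the authors scaled them in their own work is not known here. Of 39429 non-control probes 28663 (72.7%) were given a symbol through their accession in RefSeq.

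From the deposited intensities, log2 values minus the 75th percentile of each array were computed here, leaving out control and outlier spots (98 to 285 an array). Kept were probes that 3 or more of the 20 arrays detected well above background, and the brightest stood for its gene, which gave 18852 genes, 13933 with a symbol. limma 3.58.1 (R 4.3.3) fitted all 20 arrays of 6 groups without covariates (residual df 14). Each comparison was adjusted by Benjamini-Hochberg over all genes. The number of arrays, 3 to 5 a group, limits the precision. Classes follow the signs of the called changes against void. A group in which every array was at background has only a bound, taken from the background floor. The fit was tested on simulated data.

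The members, gene lists and tests were chosen with earlier results of these data known. Named genes are Rela, then per class those with the largest lower end of the 95% interval of the interaction, above background on all 14 arrays and called whichever array was left out, and up to 2 per gene list; further called members of 5 of the lists were named after their values were seen. There were 21 lists with 424 members, 360 of them measured.

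Alternatives were quantile normalization, normexp (offset 50, on the median signal, since the files hold no mean signal), no scaling, other filters, probe means, only the 14 arrays, array weights, a trended fit, slide as a block, single slides and each array left out. The 2 sets of N+C arrays were tried separately after seeing the data. The title "Blanck" was taken to mean the void plasmid, and the fit used every array. A few list members are not reported here.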

Additional observations from a re-analysis of the deposited data

Results flagged for a closer look

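In 3 of the 113 named genes, a single N+C array stood apart from the other 4 N+C arrays by more than the critical ratio of gap to range (0.71). Chance gives about 1 such case in 20 groups. Zfr2 read -2.427 in N+C 4, against -1.888 to -1.839 in the other 4 (ratio 0.916). Gadd45b read -1.446 in N+C 5, against -1.801 to -1.709 (ratio 0.742). Ccnb1 read 4.27 in N+C 2, against 4.166 to 4.189 (ratio 0.779). Zfr2 kept its class and its called interaction with N+C 1 to 3 only and with N+C 4 and 5 only.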

How the results depend on the processing

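Precision is limited by 3 to 5 arrays a group, by the common void arrays and by probes near background, and the cause of a shift named here was not tested. Over 34 alternatives and 113 named genes, 3598 of 3822 interactions kept sign and call, 210 lost the call, 11 gained it, and 3 turned negative, all without scaling: Socs3 (-0.0255), Mdm2 (-0.14) and Bax (-0.0529). Across all alternatives 74 genes kept both. No paired analysis was possible because a number in a title is only a running number. At 1 log2 unit or more 1256 interactions were called. Without scaling there were 1705 saturation, 89 reversal and 149 genes called only with both, and 2059 differed between N+C and the C-fragment. Without a filter there were 650 saturation, 81 reversal and 19 opposed genes. The 14 arrays alone gave 100 reversal and 30 opposed genes. Array weights, which were lowest for N+C 4 (0.155) and N+C 5 (0.141), gave 9201 interactions, 2527 saturation, 742 reversal, 826 only with both, 3668 lost, 296 opposed, and 7782, 7785 and 7078 genes for N+C against the N-fragment, N+C against the C-fragment and the N-fragment against the C-fragment. With the N+C array of slide 2 there were 123 opposed genes. Slide 3 gave 656 saturation, 345 reversal, 436 only with both and 132 opposed, slide 4 gave 635, 355, 441 and 137, and slide 5 gave 94 reversal, 154 only with both and 1910 for N+C against the C-fragment. N+C 1 to 3 only gave 607 reversal, 716 only with both, 192 opposed and 5731 for N+C against the C-fragment, and N+C 4 and 5 only gave 354, 462 and 149 in those classes. With slide as a block, N+C 1 to 3 gave 7952 interactions, 1750 saturation, 901 reversal, 931 only with both, 278 opposed, and 7841, 7656 and 6941 for the 3 comparisons, and N+C 4 and 5 gave 498 reversal, 176 opposed and 6640 for the N-fragment against the C-fragment. Classes at adjusted p under 0.01 were 514 saturation, 51 reversal and 20 opposed, and at 2-fold or more 121 saturation, 13 reversal, 39 only with both, 739 lost and 8 opposed. Leaving out 1 array gave 3466 to 4953 interactions, 662 to 1064 saturation, 72 to 192 reversal, 189 to 414 only with both, 1541 to 2280 lost and 24 to 61 opposed, and 2951 to 4653, 2000 to 3973 and 2832 to 4093 for the 3 comparisons. Reversal was 72, 82 and 97 without void 2, void 3 and void 1, saturation 662 without void 3, only with both 414 and 399 without N+C 4 and N+C 5, opposed genes 24, 25, 27 and 29 without void 2, void 3, C-fragment 2 and C-fragment 3, and N+C against the C-fragment 2000 and 2080 without C-fragment 2 and C-fragment 3.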

Other observations

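Of 17 melanocyte markers 4 had a negative and 2 a positive called interaction, against 23.5% called among all genes. Without scaling the counts were 7 and 0, where 4410 of the 5322 calls over all genes were negative. Mitf, the lineage's master transcription factor, differed from void by -0.07 with N+C and rose by 0.42 with the N-fragment (interaction -0.43, adjusted p = 0.00574 by limma). Tyr, the tyrosinase of pigment synthesis, fell by 0.40 with N+C and by 0.72 with the N-fragment (interaction 0.29, adjusted p = 0.0328). Oca2 and Slc24a5, transporters of the melanosome, differed from void by -0.17 and 0.06 with N+C and rose by 0.61 and 0.41 with the C-fragment.

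Interferon-stimulated genes gave 1 positive and 3 negative called interactions of 27 measured, against 23.5% called among all genes. With N+C 4 were higher and 11 lower than void, against 25% of all genes called. With N+C 1 to 3 only, 12 interactions were called, each negative, where 6469 of 18852 genes were called, 3963 positive and 2506 negative. With N+C 4 and 5 only, 6 were positive and 3 negative, where 5417 of 18851 genes were called, 3457 positive and 1960 negative. The 2 genes named here were among the 4 that were higher. Oasl1, an oligoadenylate synthetase-like protein, rose 2-fold with N+C and 9.11-fold with the N-fragment (interaction -1.69, adjusted p = 0.00187). Ifit1, which binds viral RNA, rose by 0.91 with N+C and by 1.80 with the N-fragment (interaction -0.71, adjusted p = 0.0111), and with N+C 4 and 5 only that interaction was not called (adjusted p = 0.058).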
